A study of Mus musculus with 6 samples.

Results

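The series was searched for 10 genes of secreted growth and angiogenic factors, out of 24411 genes listed, and all 10 had a row in each library. They are Vegfa, Vegfb and Pgf of the vascular endothelial growth factor (VEGF) family, Pdgfa, Pdgfb and Pdgfc of the platelet-derived growth factor (PDGF) family, and Igf1, Hbegf, Hgf and Osm. They were taken by symbol, from a list drawn up with earlier results of these data known. RNA was sequenced from 6 libraries of macrophages grown from the marrow of C57BL/6 mice, an inbred strain. In 3 libraries the macrophages came from bone marrow monocytes sorted as LFA1-hi Itgam-hi, and in the other 3 from monocytes sorted as LFA1-lo Itgam-lo. They are called LFA1-hi and LFA1-lo macrophages here. LFA1 is an integrin of leukocytes, and Itgam encodes the CD11b chain of another. The culture was the same for both groups: 7 days with M-CSF (20 ng/ml), the growth factor that turns monocytes into macrophages, and 10% serum, with fresh medium on day 4. No genetic change or further treatment is labelled, the subsets were parted by the sort alone, and the sources used here give neither the age and sex of the mice nor whether replicates are separate animals or cultures. P-values therefore measure the spread between these libraries, which may be technical.

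Macrophages are a main source of growth factors in tissue repair. VEGF-A drives the growth of blood vessels through its receptors on endothelium, and its gene is induced by low oxygen. PDGF chains form dimers that recruit and expand fibroblasts, pericytes and smooth muscle cells. Insulin-like growth factor 1 and hepatocyte growth factor support survival and growth of muscle, epithelium and other cells. HB-EGF is a membrane-bound ligand of the epidermal growth factor receptor that is released by cutting at the cell surface, and oncostatin M is a cytokine of the interleukin-6 family.

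Summed expected counts, the number of reads or fragments estimated for each gene by RSEM, were 15191262 to 17614509 in LFA1-hi and 16404922 to 17115544 in LFA1-lo libraries. In CPM, which are counts per 1000000 counts of the library, 3 counts were worth 0.170 to 0.197. Levels are given in TPM, transcripts per 1000000 transcripts, which are per length and can be compared between genes. All 8 macrophage markers, among them Csf1r, the M-CSF receptor, and Adgre1, the F4/80 antigen, passed the filter on low counts, with a summed level of 13353 to 15416 CPM in LFA1-hi and 16006 to 21613 CPM in LFA1-lo libraries. Most of this sum was Lyz2, with 9147 to 10915 CPM in LFA1-hi and 9867 to 14781 CPM in LFA1-lo libraries. The groups overlapped for Lyz2, which was close to the threshold (edgeR adjusted p = 0.04996). Of these 8 markers 5 were lower and 1 higher in LFA1-hi macrophages (edgeR adjusted p under 0.05), with a median log2 fold change of −0.36. Over all tested genes 15.6% were lower and 16.1% higher. Csf1r was 2.03-fold lower (adjusted p = 0.000155) and Adgre1 1.77-fold lower (adjusted p = 8.13e-05). The part of this difference in the results on growth factors was not tested.

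Start regions are shown for 3 genes that were lower in LFA1-hi macrophages, Vegfa, Pdgfa and Pdgfc, and for Vegfb, which did not pass the test. Each line holds the 250 bases before the most upstream start in the promoter table of RefSeq (GRCm38.p6), written 5′ to 3′ along the gene. Capitals mark GGGCGG, the core of the GC box bound by Sp1, and GCGTG, a core that hypoxia-inducible factors can bind, on either strand.
Vegfa (chr17:46032378-46032627, minus strand): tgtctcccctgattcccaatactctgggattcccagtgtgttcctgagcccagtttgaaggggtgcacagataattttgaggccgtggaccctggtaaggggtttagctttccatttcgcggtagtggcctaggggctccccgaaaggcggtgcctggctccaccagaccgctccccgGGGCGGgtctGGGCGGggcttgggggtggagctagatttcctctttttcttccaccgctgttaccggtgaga
Pdgfa (chr5:138994945-138995194, minus strand): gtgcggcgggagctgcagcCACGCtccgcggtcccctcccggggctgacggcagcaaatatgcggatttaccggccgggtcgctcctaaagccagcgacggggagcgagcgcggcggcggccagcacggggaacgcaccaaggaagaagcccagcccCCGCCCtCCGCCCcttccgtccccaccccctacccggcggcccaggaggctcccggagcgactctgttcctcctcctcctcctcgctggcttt
Pdgfc (chr3:81036166-81036415, plus strand): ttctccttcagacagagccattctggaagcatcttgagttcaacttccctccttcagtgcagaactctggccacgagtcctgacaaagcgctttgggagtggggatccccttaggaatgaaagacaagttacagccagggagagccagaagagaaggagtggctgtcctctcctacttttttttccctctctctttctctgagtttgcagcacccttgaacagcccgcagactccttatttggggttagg
Vegfb (chr19:6987652-6987901, minus strand): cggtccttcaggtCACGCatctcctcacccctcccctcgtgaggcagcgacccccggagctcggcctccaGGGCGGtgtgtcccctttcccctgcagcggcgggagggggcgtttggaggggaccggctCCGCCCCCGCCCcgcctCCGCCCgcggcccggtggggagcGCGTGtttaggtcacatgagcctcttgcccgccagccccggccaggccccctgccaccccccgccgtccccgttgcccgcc
The Vegfa window held 2 GC boxes, the Pdgfa window 2, the Vegfb window 4 and the Pdgfc window 0, where 33.0% of the 27025 windows of this length hold at least 1. GCGTG was found once in the Pdgfa window and in 2 places in the Vegfb window, against 28.3% of all windows, and neither in that of Vegfa nor in that of Pdgfc. In Vegfb 1 match to GCGGGGGCG, an Egr site found in 2.55% of all windows, overlaps 2 of the GC boxes. None of the 7 members with a sequence held ACGTG (16.5% of all windows), GCGTGGGCG (0.540%), the AP-1 site TGACTCA (4.43%), the CRE site TGACGTCA (1.60%) or the STAT site TTCNNNGAA (7.14%). All 7 held a loose NF-kB pattern, GGG followed by CC after any 5 bases, found in 45.4% of all windows. GC content was 59.2% for Vegfa, 72.4% for Pdgfa, 50.8% for Pdgfc and 76.4% for Vegfb, against a median of 52% over all windows. The Pdgfa window lies inside the full span that RefSeq gives for the gene. Pdgfb, Hbegf and Osm were not in the table.

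The comparison set by the labels is of macrophages grown from LFA1-hi monocytes with those grown from LFA1-lo monocytes. Vegfa, Pdgfa, Pdgfb, Pdgfc and Hbegf fell in LFA1-hi macrophages, by 2.26-fold to 7.59-fold, while Vegfb, Igf1, Hgf and Osm did not pass the test. Pgf had too few counts to be tested. Of the 9 tested members 5 were thus lower and 0 higher in LFA1-hi (edgeR quasi-likelihood test, Benjamini-Hochberg adjusted p under 0.05), where 31.7% of all 11692 tested genes passed in either direction, 15.6% lower and 16.1% higher. At an unadjusted p under 0.05, for which the share over all tested genes was not counted, the numbers were 6 lower and 0 higher. DESeq2 and limma voom too called 0 members higher. The median log2 fold change was −1.18 over the 9 tested members and −0.0047 over all tested genes. Of the 9 tested members 5 were both called and at least 2-fold lower, against 3.81% of all tested genes. Pdgfc, among these, had 8 to 15 counts in LFA1-hi and passed the filter on low counts only through the LFA1-lo libraries. Its call was thus not independent of its being tested. In bulk RNA, fewer cells of a type and less RNA per cell cannot be told apart.

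**Figure D1:**
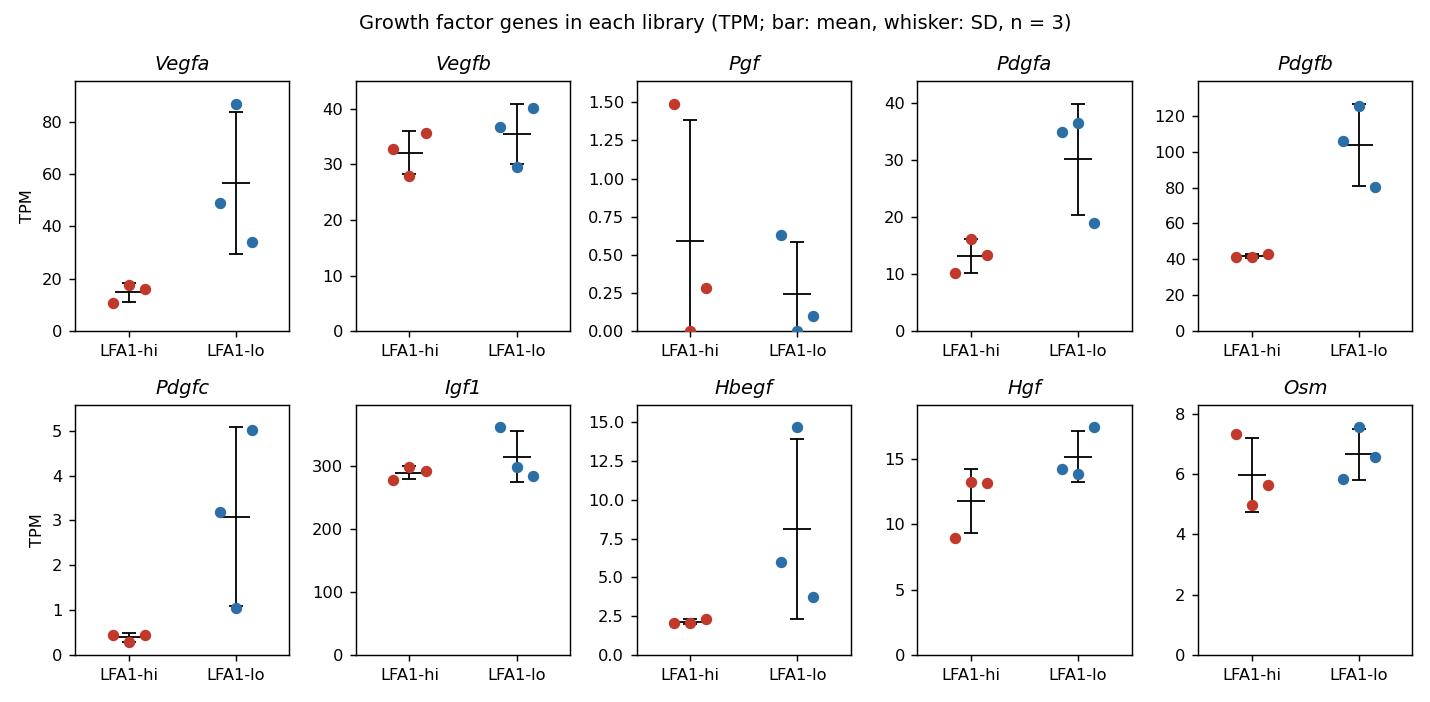
TPM of the 10 growth factor genes in each library, with LFA1-hi libraries in red and LFA1-lo libraries in blue (points: libraries; bar and whisker: mean and SD, n = 3 each; every axis starts at 0). The groups are apart for Vegfa, Pdgfa, Pdgfb, Pdgfc and Hbegf, and narrowly for Hgf, and they overlap for Vegfb, Pgf, Igf1 and Osm.

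Some markers of other cell types were lower in LFA1-hi as well, beside 15.6% lower and 16.1% higher over all tested genes. Each list held few tested genes, so its count cannot be weighed against these shares. Of 9 neutrophil markers in the files 3 of the 4 tested were lower in LFA1-hi, and their summed level was 4.03 to 6.31 CPM in LFA1-hi and 11.8 to 41.8 CPM in LFA1-lo libraries, with none at 0 in all libraries. Of 9 endothelial markers 5 were tested, of which Vwf (log2 fold change −0.94) and Esam (0 to 4 counts in LFA1-hi and 11 to 31 counts in LFA1-lo libraries) were lower in LFA1-hi, while Cdh5 (1.98, adjusted p = 0.0525), Pecam1 (0.77, adjusted p = 0.275) and Kdr (0.51, adjusted p = 0.0644) had positive values that did not pass. The median was 0.51, with a sum of 80.6 to 86.0 CPM in LFA1-hi and 100.2 to 146 CPM in LFA1-lo, and Emcn and Cldn5 were at 0. Of 6 T and NK cell markers in the files the only one tested, Cd4, was lower in LFA1-hi, with a sum of 0.170 to 0.511 CPM in LFA1-hi and 3.58 to 4.9985 CPM in LFA1-lo, and Cd3e, Cd3d and Ncr1 were at 0. The 10 stromal markers summed to 2.90 to 4.77 CPM in LFA1-hi and 2.86 to 4.82 CPM in LFA1-lo, with Lum, Pdgfra and Lepr at 0. Of the 8 megakaryocyte markers 1 of 3 tested, Ppbp, was lower in LFA1-hi, with a sum of 263 to 301 CPM in LFA1-hi and 218 to 301 CPM in LFA1-lo, and Gp1bb and Gp9 were among those at 0. Of 7 mast cell and basophil markers 1 of 2 tested, Kit, was lower in LFA1-hi, with a sum of 0.987 to 1.65 CPM in LFA1-hi and 1.35 to 6.52 CPM in LFA1-lo, and Cpa3, Ms4a2, Fcer1a and Prss34 were at 0. No tested dendritic or B cell marker passed. Several of the lowered markers, among them S100a9, Ltf, Ngp, Esam and Cd4, passed the filter on low counts only through the LFA1-lo libraries. For them being tested and being lower in LFA1-hi were not independent, so their calls carry little weight. S100a8, the other tested neutrophil marker, did not pass (edgeR adjusted p = 0.149). Whether cells of these types were in the cultures, and their part in the results on growth factors, was not tested.

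Vegfa (chromosome 17, 46016993 to 46032377, GRCm38) had 10.6, 17.6 and 16.3 TPM in LFA1-hi replicates 1, 2 and 3, against 48.8, 86.85 and 34.15 TPM in LFA1-lo replicates 1, 2 and 3. Every LFA1-hi library lay below every LFA1-lo library, and LFA1-lo replicate 2 was the highest. Its expected counts were 337 to 524 in LFA1-hi and 1004 to 2454 in LFA1-lo libraries. Vegfa was 3.82-fold lower in LFA1-hi macrophages (log2 change, the log2 of the ratio of LFA1-hi to LFA1-lo, −1.93 with SE 0.39, edgeR adjusted p = 0.0121). Vegfb (chromosome 19, 6982472 to 6987651), a relative that binds the receptor FLT1 and not KDR, had 32.7, 27.9 and 35.6 TPM in LFA1-hi and 36.7, 29.5 and 40.1 TPM in LFA1-lo libraries. The groups overlapped, and the log2 fold change was −0.12 (95% interval −0.48 to 0.23, edgeR adjusted p = 0.589). Pgf (chromosome 12, 85166637 to 85177785), which encodes placental growth factor, another FLT1 ligand, had expected counts of 16, 0 and 3 in LFA1-hi and 6, 0 and 1 in LFA1-lo libraries. It was at 0 in replicate 2 of both groups and did not pass the filter on low counts. Fitted without a filter, its log2 fold change was 1.31 (edgeR adjusted p = 0.569).

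Vegfa made up 23.7%, 38.7% and 31.2% of the summed TPM of Vegfa, Vegfb and Pgf in LFA1-hi libraries, against 56.6%, 74.6% and 45.9% in LFA1-lo libraries. Vegfb held most of the sum in each LFA1-hi library, while in LFA1-lo libraries it held most in replicate 3 alone. The means were 31.2% ± 7.47 in LFA1-hi and 59.1% ± 14.5 in LFA1-lo libraries (SD, n = 3 each), a difference of −27.9 percentage points (exact 2-sided permutation test, p = 0.1, the smallest that 3 against 3 libraries allow). Under that limit the share could not pass a threshold of 0.05 in this design.

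All members of the PDGF family in this list fell in LFA1-hi macrophages. Pdgfb (chromosome 15, 79995865 to 80024614), which encodes the PDGF-B chain, had 41.3, 41.3 and 43.0 TPM in LFA1-hi, against 106, 126 and 80.2 TPM in LFA1-lo libraries. The LFA1-hi libraries were nearly alike, and all lay below the LFA1-lo libraries. Pdgfb was 2.45-fold lower in LFA1-hi (log2 change −1.29 with SE 0.16, edgeR adjusted p = 0.000556). Pdgfa (chromosome 5, 138976014 to 139000792), which encodes the PDGF-A chain, had 10.2, 16.2 and 13.3 TPM in LFA1-hi, against 34.9, 36.4 and 18.9 TPM in LFA1-lo libraries. The groups did not overlap, but LFA1-lo replicate 3 came close to LFA1-hi replicate 2. Pdgfa was 2.26-fold lower (log2 change −1.18 with SE 0.28, edgeR adjusted p = 0.0113), and without LFA1-hi replicate 1 it did not pass (−1.03, adjusted p = 0.0592, the highest over 14 alternatives that began at 0.000647).

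Pdgfc (chromosome 3, 81036416 to 81214040) encodes a PDGF chain that is secreted in a latent form and activated by cutting. It was low, at 0.44, 0.28 and 0.45 TPM in LFA1-hi, against 3.19, 1.05 and 5.02 TPM in LFA1-lo libraries. Expected counts were 15, 8 and 15 in LFA1-hi and 96, 31 and 155 in LFA1-lo, so that LFA1-lo replicate 2, the highest library for Vegfa, was the lowest of its group here. The gene passed the filter on low counts only through the LFA1-lo libraries. Pdgfc was 7.59-fold lower in LFA1-hi (log2 change −2.92 with SE 0.56, edgeR adjusted p = 0.00435), and the fitted value shrank to −1.42 on the log2(TPM + 1) scale, which understates changes of low genes. Pdgfb held 75.6% ± 3.96 of the summed TPM of the 3 PDGF genes in LFA1-hi and 75.9% ± 1.996 in LFA1-lo libraries (SD, n = 3 each). The difference was −0.25 percentage points (exact 2-sided permutation test, p = 1), and its sign turned when expected counts replaced TPM or single libraries were left out. Pdgfc held 0.71% ± 0.20 in LFA1-hi and 2.56% ± 2.11 in LFA1-lo libraries, with a range of 0.64% to 4.82% in the LFA1-lo libraries.

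Hbegf (chromosome 18, 36504927 to 36515805), the ligand of the epidermal growth factor receptor, had 2.04, 2.05 and 2.32 TPM in LFA1-hi, against 5.99, 14.7 and 3.71 TPM in LFA1-lo libraries. The LFA1-hi libraries were tightly grouped below the LFA1-lo libraries, among which replicate 2 stood far above the others. Hbegf was 3.77-fold lower in LFA1-hi (log2 change −1.91 with SE 0.50, edgeR adjusted p = 0.0206), and without LFA1-lo replicate 2 the log2 fold change was −1.14 (adjusted p = 0.00757). It missed the threshold when LFA1-hi replicate 1, 2 or 3 was left out (adjusted p = 0.0684, 0.0741 and 0.0618) or with limma voom (adjusted p = 0.0856), over 14 alternatives whose lowest value was 0.000264.

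Igf1 (chromosome 10, 87858265 to 87937047), which encodes insulin-like growth factor 1, was by far the most abundant member. It had 278, 298 and 292 TPM in LFA1-hi and 361, 298 and 285 TPM in LFA1-lo libraries, so the groups overlapped in TPM. In CPM they were apart by a narrow margin, with 899 to 932 CPM in LFA1-hi and 939 to 1172 CPM in LFA1-lo libraries. Its log2 fold change was −0.22 (95% interval −0.43 to −0.0074, edgeR adjusted p = 0.106), and it did pass when LFA1-lo replicate 2 was left out (−0.25, adjusted p = 0.0292) or LFA1-lo replicate 3 (−0.29, adjusted p = 0.0416), with alternatives up to 0.429. Hgf (chromosome 5, 16553495 to 16619439), which encodes the ligand of the receptor MET, had 8.94, 13.2 and 13.1 TPM in LFA1-hi, against 14.25, 13.9 and 17.4 TPM in LFA1-lo libraries. The groups were apart by a narrow margin in TPM but overlapped in CPM, and the log2 fold change of −0.32 did not pass (95% interval −0.70 to 0.048, edgeR adjusted p = 0.167). Osm (chromosome 11, 4236785 to 4241026) had 7.34, 4.96 and 5.64 TPM in LFA1-hi and 5.84, 7.54 and 6.57 TPM in LFA1-lo libraries. The groups overlapped widely (log2 fold change −0.13, 95% interval −0.66 to 0.40, edgeR adjusted p = 0.714).

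**Figure D2:**
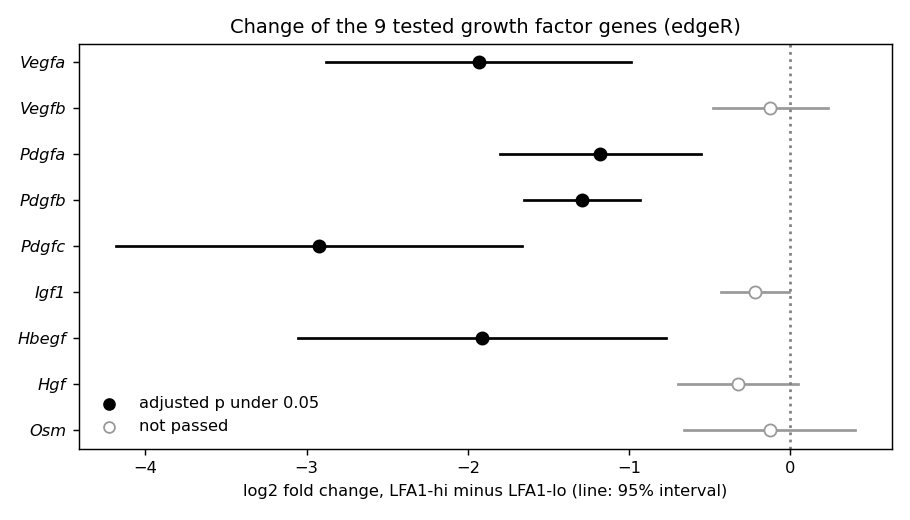
Log2 fold changes of the 9 tested growth factor genes, LFA1-hi minus LFA1-lo, with 95% intervals from the edgeR fit. Points for Vegfa, Pdgfa, Pdgfb, Pdgfc and Hbegf are filled (adjusted p under 0.05), and those for Vegfb, Igf1, Hgf and Osm are open and lie between −0.32 and −0.12.

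In LFA1-hi macrophages the order of mean levels was Igf1 (289 TPM), Pdgfb (41.9 TPM), Vegfb (32.05 TPM), Vegfa (14.8 TPM), Pdgfa (13.2 TPM), Hgf (11.8 TPM), Osm (5.98 TPM), Hbegf (2.14 TPM), Pgf (0.59 TPM) and Pdgfc (0.39 TPM). Vegfa, Pdgfa and Hgf overlapped with their neighbours in this order, as did Pgf and Pdgfc. In LFA1-lo macrophages Igf1 (315 TPM) and Pdgfb (104 TPM) again led, followed by Vegfa (56.6 TPM), Vegfb (35.5 TPM), Pdgfa (30.1 TPM), Hgf (15.2 TPM), Hbegf (8.12 TPM), Osm (6.65 TPM), Pdgfc (3.09 TPM) and Pgf (0.24 TPM). There the ranges of Pdgfb and Vegfa, of Vegfa and Vegfb, of Vegfb and Pdgfa, of Hgf and Hbegf, and of Hbegf and Osm overlapped. The 10 genes summed to 393 to 422 TPM in LFA1-hi and 491 to 617 TPM in LFA1-lo libraries. Igf1 held 69.2% to 70.7% of that sum in LFA1-hi and 48.6% to 58.5% in LFA1-lo libraries.

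The deposited files also give for each gene a transcript length weighted by the estimated use of its isoforms, a readout that the counts do not contain. Igf1 showed a weighted length of 5781, 5736 and 5675 bases in LFA1-hi, against 6275, 6123 and 6250 bases in LFA1-lo libraries. The groups were apart, with means of 5730 ± 52.9 in LFA1-hi and 6216 ± 81.4 bases in LFA1-lo libraries (SD, n = 3 each). The difference was −486 bases (exact 2-sided permutation test, p = 0.1, the smallest possible, and 0.4 after adjustment over the 4 genes tested). Of the 5 Igf1 transcripts listed, 4 could be matched to GENCODE M21, where 1 is 7052 bases long and the others are 651, 1344 and 1673 bases. These need not be the lengths behind the deposited values. For Pdgfa, with 1 listed transcript, the deposited length is 1018 bases and that in GENCODE 2060 bases. The weighted length of Vegfa differed by −16.5 bases (p = 0.5), that of Vegfb by −1.19 bases (p = 0.9) and that of Hgf by 37.5 bases (p = 0.6, exact permutation tests), each less than the larger SD of the groups. The share of single isoforms is not given at gene level, so a shift in weighted length does not say which transcript changed.

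**Figure D3:**
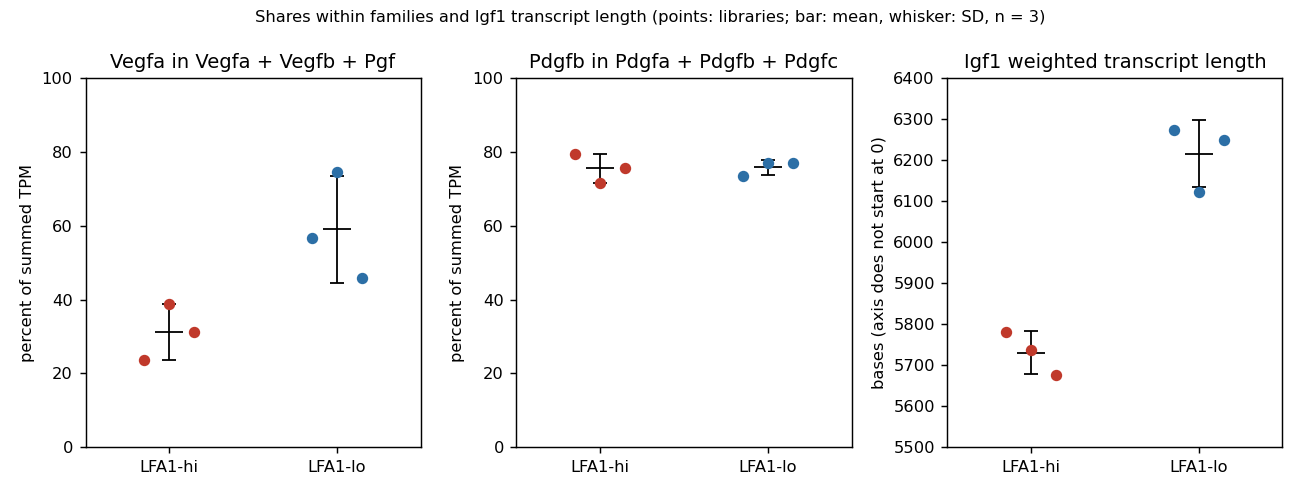
Percent of Vegfa in the summed TPM of Vegfa, Vegfb and Pgf (left), percent of Pdgfb in that of Pdgfa, Pdgfb and Pdgfc (middle) and the isoform-weighted transcript length of Igf1 in bases (right; this axis does not start at 0), for LFA1-hi (red) and LFA1-lo (blue) libraries with mean and SD (n = 3 each). The groups are apart for the Vegfa share and the Igf1 length and overlap for the Pdgfb share.

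Of 16 receptor genes 10 were tested, of which 2 rose and 3 fell in LFA1-hi macrophages (median log2 fold change −0.09), beside 16.1% higher and 15.6% lower over all tested genes. Flt1, the receptor of VEGF-A, VEGF-B and placental growth factor, had 4.82, 5.49 and 7.46 TPM in LFA1-hi, against 1.64, 2.35 and 0.92 TPM in LFA1-lo libraries. Its level was 3.68-fold higher in LFA1-hi (log2 change 1.88 with SE 0.33, edgeR adjusted p = 0.00362), opposite in direction to the ligand gene Vegfa. Met, the receptor of hepatocyte growth factor, had 4.92, 6.98 and 6.53 TPM in LFA1-hi, against 0.77, 3.25 and 1.73 TPM in LFA1-lo libraries, and rose as well (log2 change 1.69 with SE 0.45, edgeR adjusted p = 0.0260). A single one of the rises passed in the fit that left out LFA1-hi replicate 2, and likewise for LFA1-hi replicate 3.

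Il6st, the shared signalling chain gp130 of oncostatin M and interleukin-6, had 45.95, 51.9 and 50.8 TPM in LFA1-hi, against 120, 127 and 115 TPM in LFA1-lo libraries, and was 2.40-fold lower in LFA1-hi (log2 change −1.26 with SE 0.08, edgeR adjusted p = 2.34e-05). Igf1r, the receptor of insulin-like growth factor 1, fell to 2.18, 2.90 and 2.91 TPM in LFA1-hi, against 5.66, 5.06 and 5.01 TPM in LFA1-lo libraries (−0.95, adjusted p = 0.000803). Egfr, the receptor of HB-EGF, was low in both groups and fell (−1.74, adjusted p = 0.0250), with 0.20 to 0.62 TPM in LFA1-hi and 0.90 to 1.37 TPM in LFA1-lo libraries. The VEGF receptor gene Kdr did not pass (0.51, adjusted p = 0.0644), and neither did the abundant co-receptors Nrp1 (271 TPM in LFA1-hi and 298 TPM in LFA1-lo on average; −0.11, adjusted p = 0.328) and Nrp2 (266 TPM in LFA1-hi and 289 TPM in LFA1-lo; −0.06, adjusted p = 0.639). The PDGF receptor genes were at or near 0, with Pdgfra at 0 counts in all 6 libraries and Pdgfrb at 0 to 8 counts in LFA1-hi and 2 to 9 counts in LFA1-lo libraries. Osmr, the chain specific to oncostatin M, had 0 counts in every library but LFA1-lo replicate 3, with 4.

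Of 18 related ligand genes in the files, such as Vegfc, Igf2, Areg and Il6, 2 had enough counts to be tested and neither passed. Among 27 genes that release, cut or bind these factors 15 were tested, of which 1 rose and 6 fell (median −0.19). Over all tested genes 16.1% were higher and 15.6% lower. Adam17, the main sheddase that frees HB-EGF, had 111, 106 and 106 TPM in LFA1-hi, against 188, 177 and 172 TPM in LFA1-lo libraries (log2 change −0.71 with SE 0.07, edgeR adjusted p = 0.000163), while the related protease gene Adam10 rose by 0.57 (adjusted p = 0.00344). Sdc1, a heparan sulfate carrier, fell by 1.57 on the log2 scale (adjusted p = 0.0183), and Cd9, a tetraspanin that associates with the HB-EGF precursor, by 0.61 (adjusted p = 0.0212). In fits that left out LFA1-hi replicate 2 2 genes of the list were lower, and 3 when LFA1-hi replicate 1 or LFA1-lo replicate 1 was left out.

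Genes of oxygen sensing and mRNA stability held 0 higher and 3 lower members out of 13 (median −0.05). The shares over all tested genes were 16.1% higher and 15.6% lower. Zfp36, which encodes tristetraprolin, a protein that binds AU-rich elements in transcripts such as that of Vegfa and speeds their decay, had 104, 99.8 and 100.5 TPM in LFA1-hi, against 307, 337 and 268 TPM in LFA1-lo libraries. It was 2.96-fold lower in LFA1-hi (log2 change −1.56 with SE 0.10, edgeR adjusted p = 2.47e-05), and its relatives Zfp36l1 (−1.42, adjusted p = 2.41e-05) and Zfp36l2 (−0.22, adjusted p = 0.0356) fell too. Hif1a, which encodes the oxygen-regulated subunit of a transcription factor that induces Vegfa, did not pass (0.09, adjusted p = 0.479). Of the 13 genes, 2 were higher when LFA1-lo replicate 2 was left out. Among 14 tested hypoxia targets 2 rose, 1 fell and 11 did not pass (median −0.09), where 31.7% of all tested genes passed in either direction, so the count does not set these targets apart. A single target was higher when LFA1-hi replicate 1 or 3 or LFA1-lo replicate 1 was left out, while 2 were lower without LFA1-lo replicate 2, and 3 were lower without LFA1-lo replicate 3. P4ha2, a collagen prolyl hydroxylase, rose by 1.47 (adjusted p = 0.00265) and Ldha, lactate dehydrogenase A, by 0.68 (adjusted p = 0.0184), whereas Kdm3a, a histone demethylase, fell by 0.67 on the log2 scale (adjusted p = 0.000810).

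Of 12 tested genes of other angiogenic and antiangiogenic factors 1 rose and 4 fell (median −0.14), where all tested genes held 16.1% higher and 15.6% lower. In this list 2 fell when any LFA1-hi library or LFA1-lo replicate 1 was left out. Thbs1, which encodes thrombospondin 1, an inhibitor of vessel growth, had 2.87, 5.21 and 4.81 TPM in LFA1-hi, against 35.3, 56.6 and 52.3 TPM in LFA1-lo libraries (log2 change −3.47 with SE 0.27, edgeR adjusted p = 0.000155). Its fall was thus in the same direction as that of Vegfa, a promoter of vessel growth. Angptl2 (−0.70, adjusted p = 0.0242) and Tgfb1, encoding transforming growth factor beta 1 (−0.50, adjusted p = 0.00253), fell as well, and Hdgf rose by 0.54 (adjusted p = 0.00102).

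**Figure D4:**
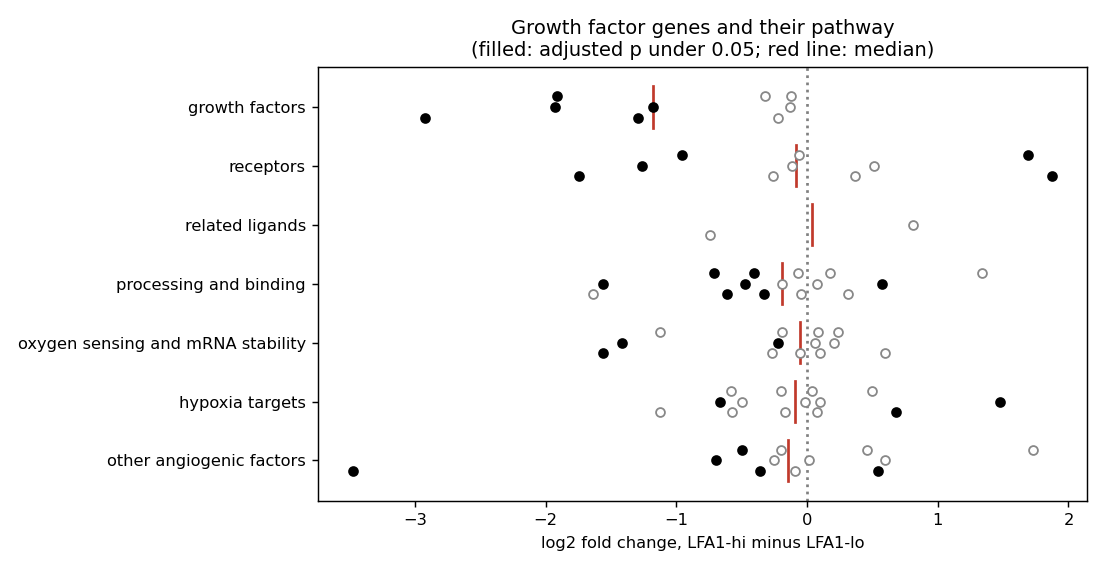
Log2 fold changes, LFA1-hi minus LFA1-lo, of the tested genes in the growth factor list and in 6 pathway lists, with filled points for an edgeR adjusted p under 0.05 and a red line at each list's median. The median of the growth factors lies at −1.18 and those of the pathway lists between −0.19 and 0.03.

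Among the LFA1-lo libraries Vegfa, Hbegf, Pdgfb and Pdgfa were each highest in replicate 2 and lowest in replicate 3 in TPM. Pdgfc departed from them, being highest in replicate 3 and lowest in replicate 2. As a description over 6 libraries that share the difference between groups, log2 CPM of Vegfa was most like that of Ptger4, a prostaglandin E2 receptor (Pearson r = 0.997), Kif1b (0.995) and Nt5c2 (0.995) among 8319 candidate genes. For Pdgfb the nearest were Fosl2, a subunit of AP-1 (0.9997), Ptprc, the leukocyte antigen CD45 (0.999), and Fam63a (0.999). The nearest to Hbegf were Rassf8 (0.999), Clic4 (0.999) and Slc23a2 (0.997), those to Pdgfc were Map1lc3b, Tbc1d4 and Tnfaip8l2 (0.997 each), and those to Pdgfa were Caml (0.987), Slc25a30 (0.983) and Atf2 (0.982).

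Leaving out single libraries left the direction of the 5 lowered members as it was. Vegfa, Pdgfb and Pdgfc passed in each of the 6 fits without a library, Pdgfa in 5 and Hbegf in 3. The number of lowered members was 3 without LFA1-hi replicate 1, and 6 without LFA1-lo replicate 2 or LFA1-lo replicate 3, where Igf1 joined them.

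**Figure D5:**
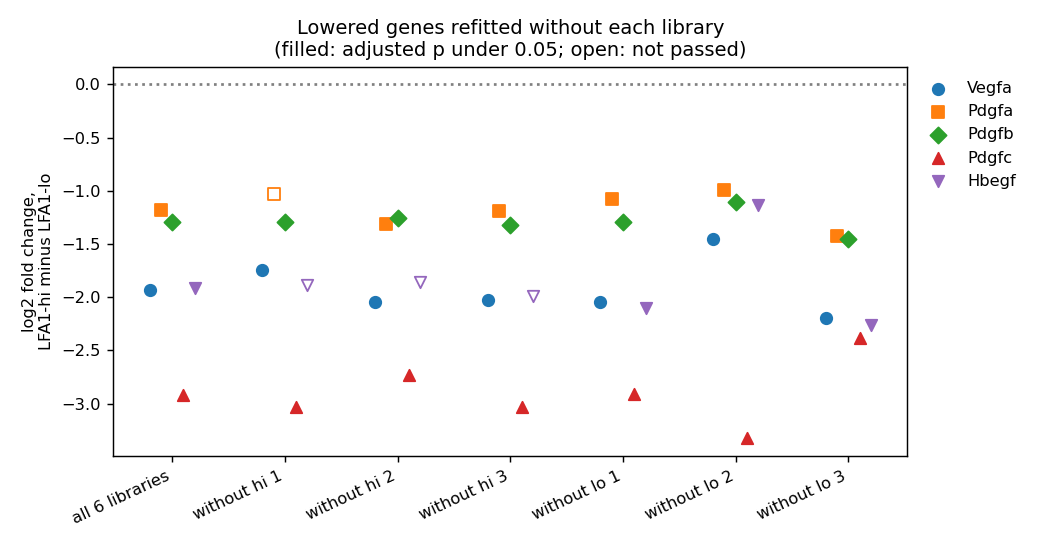
Log2 fold changes, LFA1-hi minus LFA1-lo, of the 5 lowered genes with all 6 libraries and without each library in turn, with open points where the edgeR adjusted p was not under 0.05. All values lie below 0, Pdgfa is open without LFA1-hi replicate 1, and Hbegf is open without any of the LFA1-hi libraries.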

How the data were processed

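Expression was measured in 6 libraries of cultured macrophages, 3 for each sorted subset. Per the labels' protocols, ribosomal RNA was depleted and libraries were read on a NextSeq2000. RSEM, Trim Galore, bcl2fastq and the build GRCm38 are named in the submitters' processing notes. Versions, aligner, annotation release and strand setting are not given in the sources used, so reads of Pdgfa, Pdgfb, Pdgfc, Igf1 and Hgf may be mixed with those of overlapping genes. The deposited expected counts are, per the file headers, RSEM's estimates per gene without normalization. Deposited TPM values were scaled, per the file headers, by effective length to a sum of 1000000 (999999 in 1 library), and the deposited FPKM values were not used.

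Expected counts were rounded (5.53% to 6.06% of genes were not whole), filtered with filterByExpr (11692 genes left) and scaled by TMM (factors 0.956 to 1.03). LFA1-hi minus LFA1-lo was tested in edgeR 4.0.16 (R 4.3.3) by its robust quasi-likelihood test, adjusted by Benjamini-Hochberg over all tested genes at 0.05. SEs and 95% intervals follow from the F statistic. Shares and lengths were compared with exact permutation tests (scipy 1.17.1). CPM in the text are per total count. The members, the lists and the rule for named genes (all members, up to 3 called genes each way in a list with the largest changes, and the 3 genes with mean CPM of at least 10 most like a called member) were chosen with earlier results of these data known. Genes outside this rule (Kdr, Nrp1, Nrp2, Pdgfra, Pdgfrb, Osmr, Hif1a and cell type markers) were named after their values were seen. Some markers in these lists are not reported here. Alternatives were RLE or total scaling, no filter or 10 CPM in 3 libraries, DESeq2 1.42.0, limma 3.58.1 (voom, or log2 of TPM + 0.1 or + 1), a replicate block and leaving out each library.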

Additional observations from a re-analysis of the deposited data

How the results depend on the processing

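No member was called higher under any of the 15 alternatives. The number of lowered members was 5 in the report and 2 with at least 10 CPM in 3 libraries, where Pdgfa, Pdgfc, Hbegf and Osm were no longer tested. Over the fits without 1 library it ran from 3 to 6, and that of lowered genes in the 6 pathway lists together, 17 in the report, from 9 (without LFA1-hi replicate 2; 10 without LFA1-hi replicate 1 or LFA1-lo replicate 1) to 22 (without LFA1-lo replicate 2), beside 4 to 9 raised genes, 6 in the report. Osm had log2 fold changes of −0.32 to 0.011 over these fits, and the cause was not tested. The Pdgfb share, −0.25 percentage points in TPM, was 1.66 in expected counts, which are not per length, and it ran from −2.19 to 1.77 without single libraries. The weighted length of Vegfb, −1.19 bases in the report, ran from −7.33 to 4.59 bases without single libraries. The cause of these reversals was not tested. In a fit with a replicate block 5 members were lower and 0 higher, with 15 lower and 7 higher genes in the pathway lists. Same-numbered libraries did not deviate together from their group means (correlations 0.037, 0.018 and −0.072 for numbers 1, 2 and 3), so the numbers were not treated as pairs. No LFA1-hi library correlated best with the LFA1-lo library of its own number. With the filter removed, Vegfa was close to the threshold (adjusted p = 0.0494, range over alternatives 0.000282 to 0.0494). Pdgfc and Pgf are limited by depth, with 8 to 15 and 0 to 16 counts in LFA1-hi libraries.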
